A study of Mus musculus with 12 samples.

Results

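The genes described here were 42 genes of mitosis and of the G2/M transition, taken by name from a list and read from the deposited per-read table as messenger RNA reads of passing tail quality. All 42 had reads, 26657 in total, and all 42 passed the minimum of 30 reads over the 12 libraries, among 9309 genes tested of 14042 with a read used. They were measured in P19 cells, a wild-type mouse embryonal carcinoma line that becomes neuron-like when given retinoic acid, by direct RNA sequencing on nanopores, in which each read is 1 native RNA molecule with its poly(A) tail. The 12 libraries fell into 4 time points of 3 biological replicates. D0 cells were undifferentiated cells kept in medium with serum. D2, D4 and D6 cells had spent 2, 4 and 6 days in NDiff 227 medium with 500 nM retinoic acid on poly-L-lysine. The change of medium, the change of surface and retinoic acid therefore came together, and their parts cannot be told apart. All libraries come from the same cell line, and cells in the new medium without retinoic acid were not analysed here.

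Mitosis is driven by the kinase Cdk1 bound to A- and B-type cyclins, which Cdc25 phosphatases switch on. Polo and Aurora kinases then organize the spindle and the kinetochores, the spindle checkpoint holds back the anaphase-promoting complex (APC/C) until chromosomes are attached, and the APC/C with its ubiquitin enzymes destroys securin and the cyclins. Most of these genes are transcribed late in the cell cycle, under factors that bind promoter elements called CCAAT boxes and CHR elements, and several of them serve as markers of dividing cells. In bulk RNA, fewer dividing cells and less RNA of these genes per cell cannot be told apart.

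The reads used per library ranged from 120326 to 613756, lowest at D2. Each of the 13 sequencing runs held libraries of 1 day, so that day and run cannot be told apart. The labelled cell states were checked on summed levels of marker genes in CPM, the reads of a gene scaled to a fixed library total and corrected between libraries by the trimmed mean of M-values (TMM). Pluripotency markers summed to 2119 to 2438 CPM at D0 and to 165 to 249 at D2, although Dppa5a and Zfp42 had no read at any day. Neural progenitor markers went from 544 to 597 CPM at D0 to 2729 to 3288 at D6, and neuron markers from 564 to 594 to 3124 to 3398, with Dcx at 0 at D0 and D2. Glial markers never exceeded 16.1 CPM, and mesoderm, endoderm and fibroblast markers never exceeded 33.3.

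The 42 genes together fell late. Their summed level was 6913, 7338 and 6791 CPM in the 3 D0 libraries, 7039.9, 7420.3 and 7604 in D2, 6349, 6542 and 6391 in D4 and 4944, 4792 and 4453 in D6. The D6 libraries lay below every other library and the D4 libraries below all of D0 and D2, whereas D2 overlapped D0. The D0 mean of 7014 ± 287 (SD, n = 3) was 1.48 times the D6 mean of 4730 ± 251. As a plain share of reads the genes made up 0.639% of D0 reads, 0.763% of D2, 0.637% of D4 and 0.504% of D6 reads, so the D2 share was 1.19 times that at D0 while the scaled D2 level was 1.05 times. The difference between these scales comes from TMM, which moved the median of all genes by 0.19 (D2), 0.13 (D4) and 0.24 (D6) on the log2 scale relative to scaling by library total alone.

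**Figure D1:**
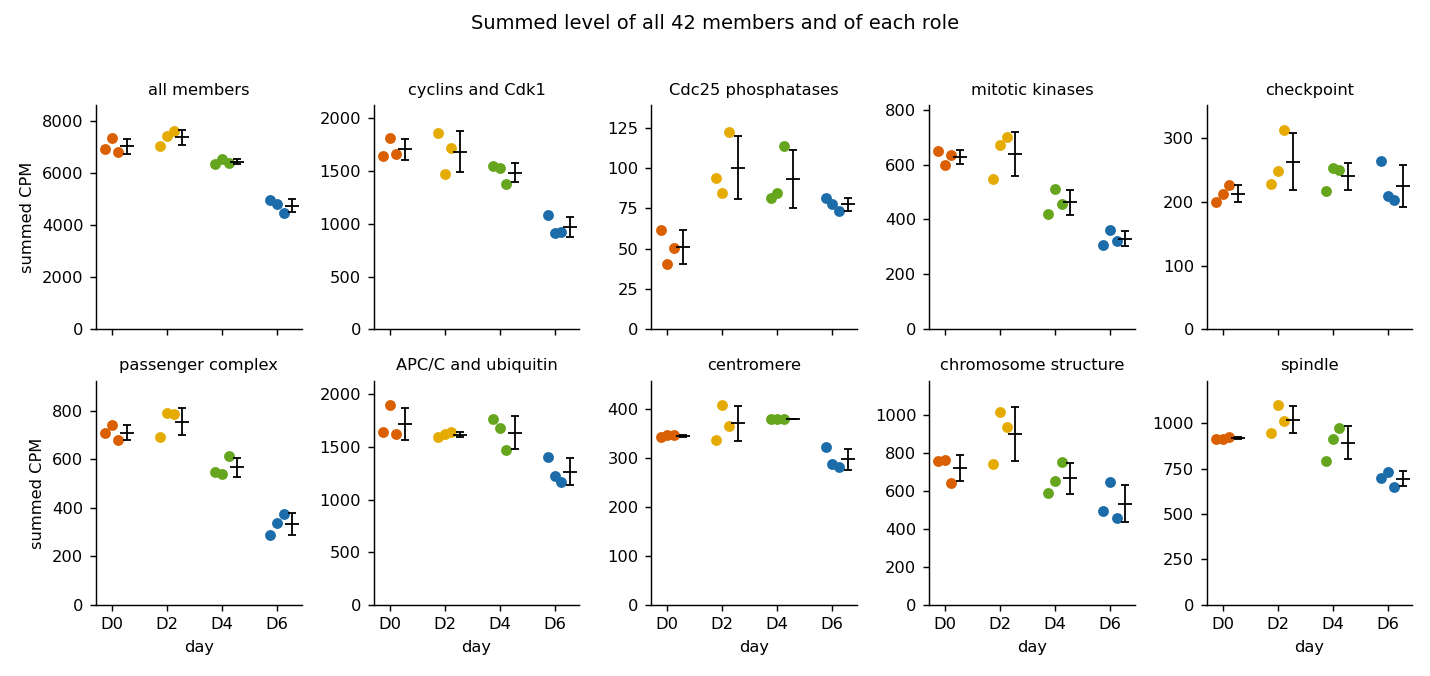
Summed level (CPM, TMM scaled) of all 42 genes and of each functional group in every library at D0, D2, D4 and D6; points are libraries, bars are the mean ± SD of 3 libraries. The sum of all genes went from 7014 at D0 to 4730 at D6, while the Cdc25 phosphatases sat lower at D0 than at the later days.

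Gene by gene, 23 of the 42 fell and 1 rose at D6 against D0 (limma-voom, Benjamini-Hochberg adjusted p of at most 0.05 over all 9309 genes), where 18.2% of all genes tested fell and 19.4% rose. Their median log2 fold change was -0.53, beside 0.02 for all genes, and 35 of the 42 values were negative. The libraries of D6 lay wholly below those of D0 for 18 of the 23 genes that fell. This count was not made over all genes, and a call already favours such separation, so it is a description only. At D4 7 genes fell and 3 rose against D0, beside 12.7% and 12.6% of all genes, and the median was -0.05 beside 0.00. With library totals alone as scaling the D4 split was 4 lower and 5 higher, and the D6 split 14 lower and 2 higher with a median of -0.28. Over all 9309 genes that scaling called 921 lower and 1537 higher at D4, and 1162 and 2588 at D6, with a D6 median of 0.26. At D2 none fell and 3 rose, beside 6.32% and 4.48% of all genes, with a median of 0.14 beside -0.05. With library totals 11 were higher at D2, with a median of 0.33, the 8 added being Aurkb, Bub1b, Cenpa, Nusap1, Prc1, Racgap1, Top2a and Ttk. Over all 9309 genes library totals gave 373 lower and 720 higher at D2, with a median of 0.13. At an unadjusted p under 0.05, 3 genes were lower and 10 higher at D2, and limma with an intensity trend also called 0 lower. Unadjusted counts were not made over all genes, so they have no background to be read against. All 7 genes that fell at D4 were also among the 23 that fell at D6, and 16 fell at D6 without a call at D4. Thinning every library to the depth of the smallest ended 2 of the 3 calls at D2, all 10 at D4 and 11 of the 24 at D6, and is given again by gene mainly where it moved the log2 fold change by over 1.5 times. At D4 it did so for Birc5, Bub1, Cks2 and Nusap1, whose values shrank to -0.33 (adjusted p = 0.336), -0.42 (adjusted p = 0.556), -0.25 (adjusted p = 0.511) and 0.32 (adjusted p = 0.612), and for Prc1, which went to 1.11 (adjusted p = 0.152).

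**Figure D2:**
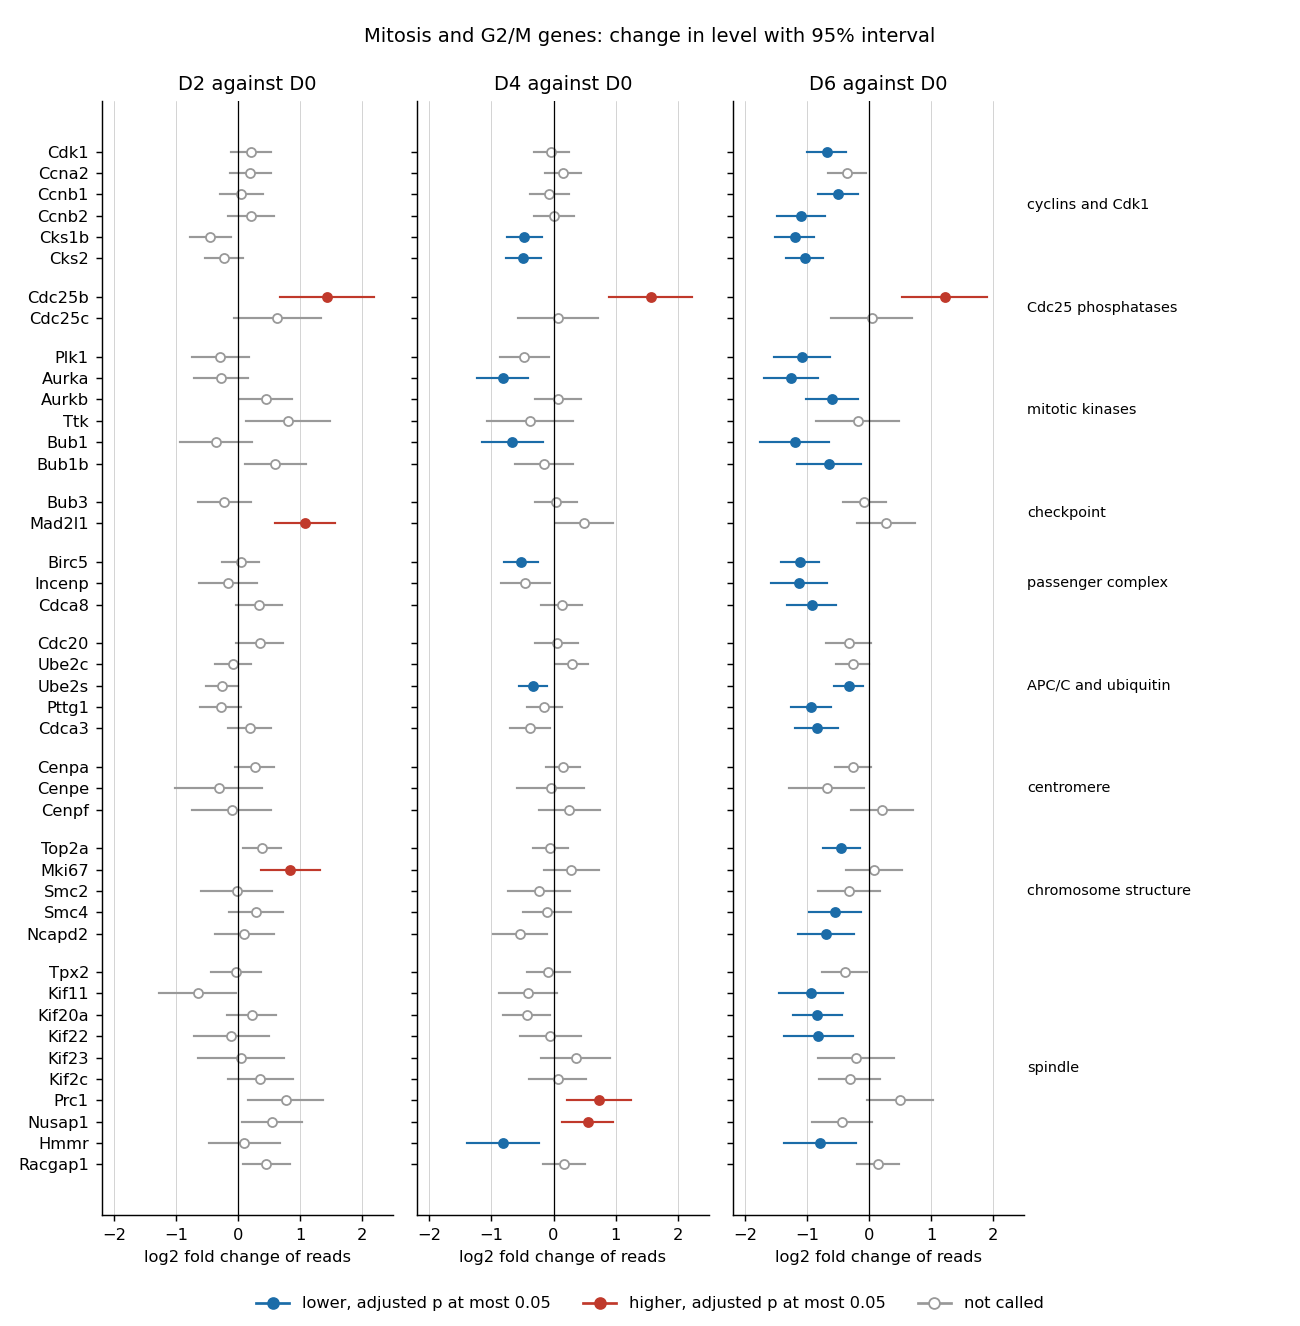
Log2 fold change of reads with its 95% interval for each of the 42 genes, by functional group, at D2, D4 and D6 against D0; blue points fell, red points rose and open points did not pass an adjusted p of 0.05. Calls number 0 lower and 3 higher at D2, 7 and 3 at D4, and 23 and 1 at D6, and most intervals at D6 lie left of 0.

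The day with the highest mean was D2 for 23 of the genes, D0 for 13, D4 for 6 and D6 for 0, and the lowest mean was at D6 for 33. Over all genes tested, D2 held the highest mean for 17.7% and D6 the lowest for 27.1%. These are orders of means, and of the 23 genes highest at D2 only Mad2l1 and Mki67 were called against D0. The comparisons at D2, D4 and D6 share the same D0 libraries, so they are not independent of each other.

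Promoters of the genes are shown because 23 of them fell together and the family is known for shared promoter elements. RefSeq windows on GRCm38.p6, from 250 bases before to 50 bases after the start, were matched for 35 of the 42 genes with 37 start sites. Both strands were searched for CCAAT, the box bound by NF-Y, and for TTTGAA or TTTAAA, the core of the CHR element (neighbouring motifs may share an end base). CCAAT was found in 31 of the 37 windows (83.8%) beside 37.4% of all 32851 windows, and at least 2 CCAAT in 21 (56.8%) beside 11.7%. The CHR core was found in 30 (81.1%) beside 27.6%, and both motifs in 28 (75.7%) beside 10.7%. Both motifs were common among genes with and without a call. Of 19 windows of genes that fell at D6, 16 held CCAAT and 15 the CHR core, and of 17 windows of genes without a call, 14 and 15. The window of Cdc25b, the gene that rose, held 1 CCAAT and no CHR core.

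Stretches of 180 bases upstream, outside annotated exons, follow for the 4 genes that fell with the most motifs in the stretch, for Birc5 and for Cdc25b. Birc5 fell with neither motif in the stretch, although its whole window held 1 CHR core. Ube2s and Pttg1 also fell, with neither motif in the whole window. The stretches run 5′ to 3′ on the strand of the gene, with CCAAT (or its reverse ATTGG) and the CHR core (or its reverse) in capitals. Top2a lies on the minus strand at chr11:99024190-99024369, Hmmr at chr11:40733438-40733617 (minus), Ccnb2 at chr9:70421555-70421734 (minus), Cdk1 at chr10:69352939-69353118 (minus), Birc5 at chr11:117849057-117849236 (plus) and Cdc25b at chr2:131186768-131186947 (plus).
Top2a: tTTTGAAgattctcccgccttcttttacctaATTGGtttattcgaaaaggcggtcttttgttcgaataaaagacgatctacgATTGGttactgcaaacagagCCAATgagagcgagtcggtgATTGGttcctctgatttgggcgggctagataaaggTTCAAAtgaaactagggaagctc
Hmmr: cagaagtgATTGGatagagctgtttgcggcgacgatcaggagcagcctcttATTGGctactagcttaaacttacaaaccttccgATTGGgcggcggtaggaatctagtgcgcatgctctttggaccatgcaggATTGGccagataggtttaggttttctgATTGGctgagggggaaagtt
Ccnb2: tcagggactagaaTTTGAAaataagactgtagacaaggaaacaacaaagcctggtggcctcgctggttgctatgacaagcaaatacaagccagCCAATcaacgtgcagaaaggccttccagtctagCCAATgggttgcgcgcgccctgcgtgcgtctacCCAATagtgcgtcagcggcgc
Cdk1: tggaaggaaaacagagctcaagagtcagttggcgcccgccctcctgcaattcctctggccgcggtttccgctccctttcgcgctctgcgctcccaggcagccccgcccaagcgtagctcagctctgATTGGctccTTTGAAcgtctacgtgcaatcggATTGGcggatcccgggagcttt
Birc5: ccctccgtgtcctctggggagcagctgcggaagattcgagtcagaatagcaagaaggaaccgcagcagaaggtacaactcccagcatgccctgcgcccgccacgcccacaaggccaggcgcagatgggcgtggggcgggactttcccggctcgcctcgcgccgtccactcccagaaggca
Cdc25b: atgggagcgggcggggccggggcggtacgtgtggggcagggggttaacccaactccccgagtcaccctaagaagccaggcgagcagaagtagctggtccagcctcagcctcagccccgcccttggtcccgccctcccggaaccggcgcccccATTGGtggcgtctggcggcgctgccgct
The stretch of Hmmr holds 5 CCAAT, that of Top2a 4 with 2 CHR cores and that of Ccnb2 3. The CCAAT of Hmmr, of Ccnb2 and of Cdk1 lie in 1 orientation within each stretch, and those of Top2a in both.

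Among Cdk1, its cyclins and its Cks partners, 5 of 6 fell at D6 and none rose, and the call with the lowest adjusted p of the 42 genes was in this group. Cks1b (mm10, chr3:89415472-89418383, minus strand, ENSMUSG00000028044.6) encodes a small protein that docks Cdk complexes onto phosphorylated targets. Its level was 389, 411 and 411 in the D0 libraries, 259, 265 and 366 in D2, 273, 323 and 274 in D4 and 275, 145 and 154 in D6, in CPM. Every D2, D4 and D6 library lay below every D0 library, and D6 was 2.30-fold lower than D0 (log2 fold change -1.20 ± 0.16 (SE), adjusted p = 4.47e-09). Cks1b had already fallen at D4 (-0.47 ± 0.14 (adjusted p = 0.0104)), a call that was not kept without D4 replicate 3 (log2 fold change -0.40, adjusted p = 0.0651), or by limma with a trend (log2 fold change -0.48, adjusted p = 0.0755). Cks2, its paralog, was at 419, 465 and 430.3 in the D0 libraries, 541, 273 and 414 in D2, 322, 326 and 294 in D4 and 197, 224 and 214 in D6 CPM. The D2 libraries spread to both sides of D0, those of D4 and D6 lay wholly below D0, and the fall reached 2.05-fold at D6 (log2 fold change -1.04 ± 0.15 (SE), adjusted p = 5.46e-08) after -0.48 ± 0.14 (adjusted p = 0.00615) at D4, which was not called by limma with a trend (log2 fold change -0.48, adjusted p = 0.0507).

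Ccnb2 (mm10, chr9:70407692-70421547, minus strand, ENSMUSG00000032218.7), a B-type cyclin, was not called before D6. It was at 178, 224 and 151 in the D0 libraries, 227, 209 and 202 in D2, 204, 197 and 160.0 in D4 and 104, 79.7 and 78.5 in D6 CPM. Each D6 library lay below each earlier one, at 2.14-fold below D0 (log2 fold change -1.10 ± 0.19 (SE), adjusted p = 4.58e-06). Thinned to the smallest library this was -1.70 (adjusted p = 0.000196). Cdk1 was at 239, 235 and 220.4 in the D0 libraries, 259, 257 and 281 in D2, 249, 239 and 199 in D4 and 129.9, 155 and 141 in D6 CPM and was 1.61-fold lower at D6 (log2 fold change -0.68 ± 0.16 (SE), adjusted p = 0.000403). With library totals this was -0.44 (adjusted p = 0.0154). The D2 libraries of Cdk1 were all above D0 and D6 all below it, but the D2 difference did not pass the test (0.21 ± 0.16 (adjusted p = 0.481)). Ccna2, the S- and G2-phase cyclin, was at 218, 239 and 195 in the D0 libraries, 267, 269 and 212 in D2, 245, 244 and 234 in D4 and 178, 169.9 and 162 in D6 CPM. It was lower in every D6 library than at D0 yet not called (-0.35 ± 0.15 (adjusted p = 0.0634), 95% interval -0.66 to -0.05). With library totals the D6 value was -0.12 (adjusted p = 0.556).

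Ccnb1, the main mitotic cyclin, gave the least settled value of the group. It was at 197, 243 and 252 in the D0 libraries, 306, 201 and 244 in D2, 257, 199 and 218 in D4 and 197, 136 and 171 in D6 CPM, with 1 D6 library inside the D0 range. The fall at D6 (log2 fold change -0.50 ± 0.16 (SE), adjusted p = 0.0109) was not called without D6 replicate 2 (log2 fold change -0.37, adjusted p = 0.116), or with library totals, by limma with a trend or with the transcript of most reads alone (log2 fold change -0.46 to -0.27, adjusted p = 0.0546 to 0.266). With only reads of mapping quality of at least 10 it came to 0.02 (adjusted p = 0.95). Only 53.4% of the 892 Ccnb1 reads reached that score, which the aligner lowers where a read matches several transcripts, those of the same gene included. Its reads also differed in kind between days. The transcript ENSMUST00000091295.13 took 24.4 to 37.3% of Ccnb1 reads at D0 and 11.3 to 24.6% at D6, and the median aligned length of a Ccnb1 read was 953 to 1308 nt at D0 and 1425 to 1861 nt at D6. Over all 42 genes the median aligned length was 842 to 924 nt at D0 and 965 to 989 at D6, and over other genes 648 to 728 and 745 to 827. The part of read length and of transcript assignment in the Ccnb1 value was not tested.

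The Cdc25 phosphatases, which remove the inhibitory phosphates from Cdk1, went the other way or did not pass the test. Cdc25b (mm10, chr2:131186958-131198497, plus strand, ENSMUSG00000027330.16) was at 26.1, 13 and 25.2 in the D0 libraries, 54.9, 44.1 and 69 in D2, 36.7, 56.3 and 88.1 in D4 and 52, 46.1 and 46 in D6 CPM. All 9 later libraries lay above the 3 D0 libraries, and the gene was called higher at D2 (1.43 ± 0.38 (adjusted p = 0.00653)), at D4 (1.57 ± 0.33 (adjusted p = 0.000191)) and at D6 (1.22 ± 0.34 (adjusted p = 0.00323)), the one gene of the 42 called higher at all 3 days. These values rest on 185 reads, as few as 7 in a library, of which 11.9% reached a mapping quality of 10. The D6 call was not kept without D0 replicate 2 (log2 fold change 0.86, adjusted p = 0.0648). The D2 call was not kept without D0 replicate 2 or D2 replicate 3 (log2 fold change 1.08 and 1.25, adjusted p = 0.083 and 0.0626). Thinning ended all 3 calls, with 1.17 (adjusted p = 0.219) at D2, 1.14 (adjusted p = 0.167) at D4 and 0.30 (adjusted p = 0.761) at D6. Cdc25c had 134 reads and a D6 log2 fold change of 0.04 ± 0.33 (adjusted p = 0.935), with an interval of -0.61 to 0.70.

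Of the mitotic kinases, 5 of 6 fell at D6. Aurka (mm10, chr2:172356190-172370535, minus strand, ENSMUSG00000027496.15), the Aurora kinase of centrosomes and spindle poles, showed the lowest fold change of the 42 genes. It was at 211, 172 and 136 in the D0 libraries, 149, 132 and 138 in D2, 77.5, 131 and 78.8 in D4 and 100.2, 75.5 and 48.7 in D6 CPM, with D4 and D6 below D0 throughout. Aurka was 1.76-fold lower at D4 (log2 fold change -0.82 ± 0.20 (SE), adjusted p = 0.00143) and 2.39-fold lower at D6 (log2 fold change -1.26 ± 0.22 (SE), adjusted p = 3.36e-06). The D4 call of Aurka was not kept with mapping quality of at least 10 or with the transcript of most reads alone (log2 fold change -0.34 and -0.58, adjusted p = 0.477 and 0.0788). Its D6 call was kept under every alternative run. Plk1, the Polo kinase that matures centrosomes and sets off mitotic entry, was at 139.8, 113 and 147 in the D0 libraries, 102, 104 and 112 in D2, 81.6, 91.4 and 107 in D4 and 37.1, 62.9 and 86.6 in D6 CPM. Its later libraries all lay below D0, and D6 was 2.11-fold lower (log2 fold change -1.08 ± 0.23 (SE), adjusted p = 8.52e-05) where D4 had not passed (-0.47 ± 0.20 (adjusted p = 0.0759)).

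Bub1, a checkpoint kinase of the kinetochore, was at 85.3, 88.9 and 113 in the D0 libraries, 39.2, 84.3 and 90.3 in D2, 40.8, 68 and 64.9 in D4 and 18.6, 54.5 and 48.7 in D6 CPM. It was lower at D4 (-0.66 ± 0.25 (adjusted p = 0.0403)) and at D6 (-1.20 ± 0.28 (adjusted p = 0.000434)), with no overlap between either day and D0. Thinned to the smallest library the D6 value was -0.84 and not called (adjusted p = 0.155). The D4 call was not kept without D0 replicate 3 or D4 replicates 1, 2 or 3 (log2 fold change -0.77 to -0.51, adjusted p = 0.0642 to 0.175), or with library totals, by limma with a trend, without the read minimum or with a replicate block (log2 fold change -0.73 to -0.54, adjusted p = 0.0686 to 0.141). Bub1b, its relative in the checkpoint complex, was at 90.1, 64.8 and 88.2 in the D0 libraries, 78.4, 136 and 133 in D2, 77.5, 56.3 and 83.5 in D4 and 33.4, 65 and 48.7 in D6 CPM, with 1 D6 library just above the lowest D0 library. Its D6 call (-0.64 ± 0.26 (adjusted p = 0.0431)) was not kept without D0 replicates 1 or 3 or D6 replicates 1 or 3 (log2 fold change -0.67 to -0.45, adjusted p = 0.0826 to 0.182), or with library totals, without the read minimum, with a replicate block or with the transcript of most reads alone (log2 fold change -0.66 to -0.41, adjusted p = 0.0509 to 0.225). Thinned to the smallest library it was -0.02 (adjusted p = 0.982). Aurkb, the catalytic subunit of the chromosomal passenger complex, was at 97.2, 132 and 107 in the D0 libraries, 149, 153 and 154 in D2, 118, 138 and 99.7 in D4 and 85.4, 71.3 and 67.7 in D6 CPM, higher in every D2 library and lower in every D6 library than at D0. The D6 fall was called (-0.60 ± 0.21 (adjusted p = 0.0185)) but not without D0 replicate 2 or D6 replicates 2 or 3 (log2 fold change -0.60 to -0.48, adjusted p = 0.0515 to 0.101), or with library totals, with mapping quality of at least 10 or with the transcript of most reads alone (log2 fold change -0.68 to -0.36, adjusted p = 0.0523 to 0.305). The D2 difference did not pass (0.45 ± 0.21 (adjusted p = 0.164)) except with library totals, at 0.63 (adjusted p = 0.027). Ttk, the kinase that starts checkpoint signalling, had 140 reads and a D6 value of -0.19 ± 0.33 (adjusted p = 0.7) with an interval of -0.85 to 0.48.

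The 2 checkpoint proteins without kinase activity were not called at D6. Mad2l1, which holds back the APC/C activator Cdc20, was at 54.5, 70.4 and 63 in the D0 libraries, 141, 132 and 127 in D2, 69.4, 93.8 and 97.4 in D4 and 108, 83.9 and 51.4 in D6 CPM. Its D2 libraries stood above all others, 2.12-fold over D0 (log2 fold change 1.08 ± 0.24 (SE), adjusted p = 0.000985), a call kept whichever library was left out. Thinned to the smallest library the D2 value was 1.19 and not called (adjusted p = 0.0517). At D4 and D6 it was at 0.49 ± 0.23 (adjusted p = 0.111) and 0.28 ± 0.24 (adjusted p = 0.379). With library totals it was called at D4 as well, at 0.62 (adjusted p = 0.0374). Bub3, which carries Bub1 and Bub1b to kinetochores, stayed between 86.2 and 186 CPM over the 12 libraries, with a D6 value of -0.08 ± 0.17 (adjusted p = 0.762) and an interval of -0.43 to 0.27.

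All 3 remaining subunits of the chromosomal passenger complex, which corrects faulty attachments and sets up cytokinesis with Aurkb, fell at D6. Birc5 (survivin; mm10, chr11:117849251-117855732, plus strand, ENSMUSG00000017716.15) was at 377, 422 and 361 in the D0 libraries, 314, 466 and 388 in D2, 265, 284 and 257 in D4 and 141, 185 and 203 in D6 CPM. D2 overlapped D0, D4 lay below it and D6 below D4, in every library. Birc5 was lower at D4 (-0.52 ± 0.14 (adjusted p = 0.00294)) and 2.17-fold lower at D6 (log2 fold change -1.12 ± 0.15 (SE), adjusted p = 1.08e-08). Cdca8 (borealin) was at 152, 172 and 185 in the D0 libraries, 306, 157 and 244 in D2, 171, 173 and 209 in D4 and 89.1, 83.9 and 94.7 in D6 CPM. It was not called at D4 (0.13 ± 0.17 (adjusted p = 0.616)) and then fell in all 3 D6 libraries, to -0.92 ± 0.20 (adjusted p = 0.000127) against D0. Incenp, the scaffold of the complex, was at 180.1, 148 and 132 in the D0 libraries, 70.6, 169 and 154 in D2, 110.2, 82 and 146 in D4 and 55.7, 69.2 and 78.5 in D6 CPM and 2.19-fold lower at D6 (log2 fold change -1.13 ± 0.23 (SE), adjusted p = 4.5e-05). Only 10.8% of Incenp reads reached a mapping quality of 10. The call was not kept with mapping quality of at least 10 (log2 fold change -0.53, adjusted p = 0.465).

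**Figure D3:**
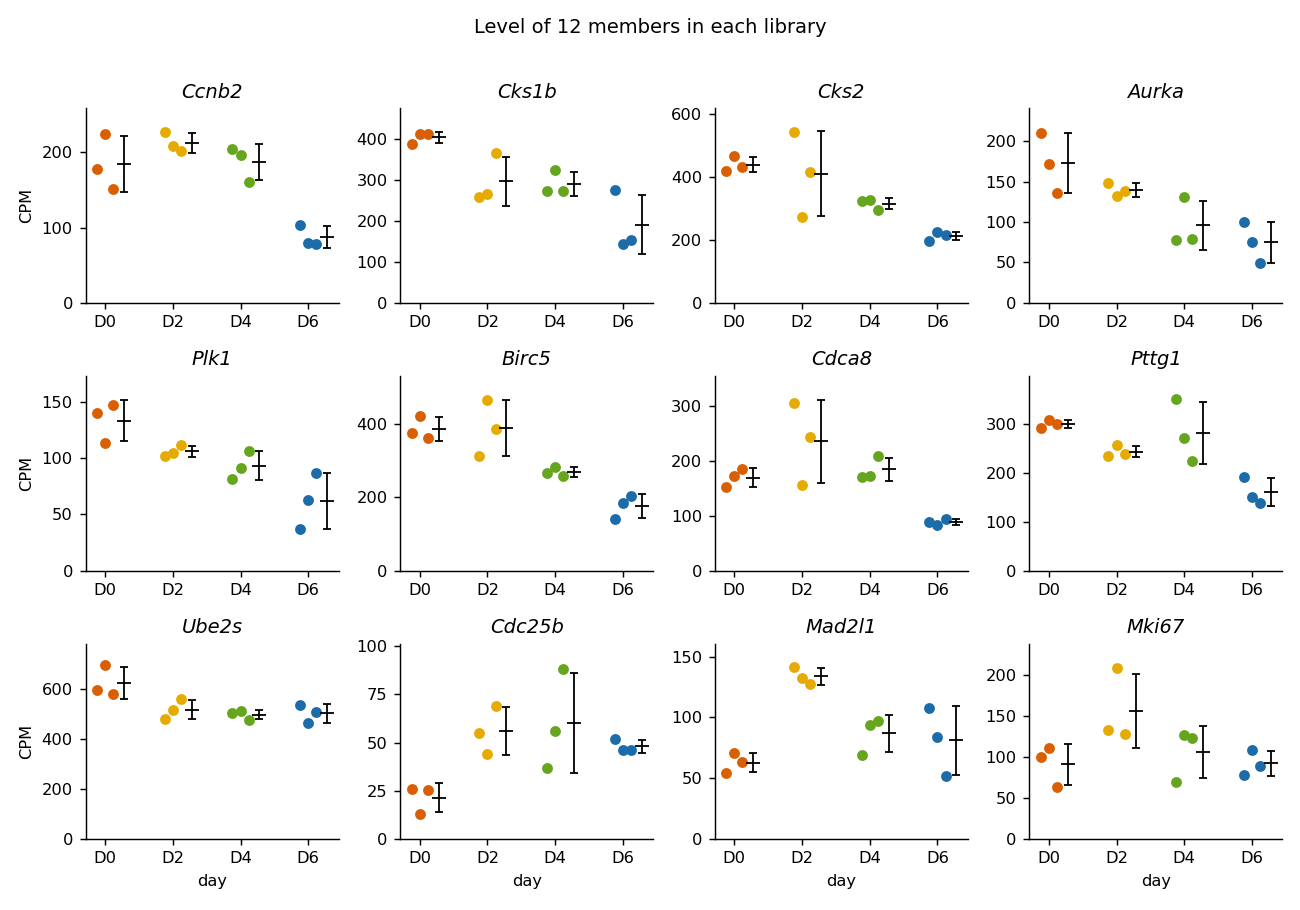
Level (CPM, TMM scaled) of 12 of the genes in every library at D0, D2, D4 and D6; points are libraries, bars the mean ± SD of 3 libraries. Ccnb2 and Cdca8 drop between D4 and D6, Cks1b, Aurka and Birc5 have every D4 and D6 library below every D0 library, Mad2l1 stands highest at D2, and Cdc25b is higher than D0 at every later day.

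In the group of the APC/C activator, ubiquitin enzymes and substrates, 3 of 5 fell at D6. Pttg1 (securin), the anaphase inhibitor that the APC/C destroys, was at 291, 309 and 300.2 in the D0 libraries, 235, 257 and 239 in D2, 351, 272 and 225 in D4 and 193, 151 and 138 in D6 CPM. D4 spread to both sides of D0 and D6 lay below every earlier library, 1.91-fold below D0 (log2 fold change -0.94 ± 0.16 (SE), adjusted p = 1.87e-06). Of Pttg1 reads 25.4% reached a mapping quality of 10. Cdca3, a protein linked to mitotic entry, was at 204, 243 and 199 in the D0 libraries, 243, 205 and 303 in D2, 167, 185 and 146 in D4 and 129.9, 119.5 and 111 in D6 CPM and 1.80-fold lower at D6 (log2 fold change -0.85 ± 0.17 (SE), adjusted p = 6.01e-05), with no overlap of D4 or D6 with D0.

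The ubiquitin-conjugating enzymes of the APC/C showed smaller falls at D6 against D0 than Pttg1 and Cdca3, a difference that was not tested. Ube2s, which extends ubiquitin chains, was at 595, 695 and 579 in the D0 libraries, 478, 514 and 558 in D2, 502, 509 and 475 in D4 and 534, 461 and 506 in D6 CPM. All 9 later libraries lay below D0, and the fall was shallow at D4 (-0.33 ± 0.12 (adjusted p = 0.0272)) and at D6 (-0.33 ± 0.12 (adjusted p = 0.0209)). Neither call was kept without D0 replicate 2 (0.136 and 0.0916, adjusted p at D4 and D6), nor the D4 call without D4 replicate 3 (0.0979) or the D6 call without D6 replicate 2 (0.0625), where the log2 fold change ranged over the 4 settings from -0.30 to -0.25. The D6 call was also lost with library totals or by limma with a trend (log2 fold change -0.10 and -0.31, adjusted p = 0.458 and 0.0576). The D4 call was also lost with library totals or by limma with a trend (log2 fold change -0.21 and -0.33, adjusted p = 0.105 and 0.0672). Ube2c, which starts the chains, was at 396, 459 and 397 in the D0 libraries, 345, 445 and 372 in D2, 608, 492 and 471 in D4 and 405, 359 and 298 in D6 CPM. It was highest at D4, where it did not pass the test (0.30 ± 0.13 (adjusted p = 0.0731)). With library totals it was called, at 0.42 (adjusted p = 0.0028). Its D6 value against D0 was -0.26 ± 0.13 (adjusted p = 0.118). Cdc20, the APC/C activator, ranged from 139 to 290 CPM up to D4 and from 114 to 145 at D6, below every D0 library but not called (-0.33 ± 0.18 (adjusted p = 0.153), interval -0.70 to 0.04). With library totals its D6 value was -0.09 (adjusted p = 0.721).

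None of the 3 centromere genes was called at any day, although with library totals Cenpa was at D2, at 0.45 (adjusted p = 0.0304). Cenpa, the histone variant that marks centromeres, was at 228, 254 and 241 in the D0 libraries, 259, 301 and 297 in D2, 282, 279 and 248 in D4 and 234, 197 and 184 in D6 CPM, with a D6 value of -0.26 ± 0.15 (adjusted p = 0.167). Cenpe, a kinetochore motor with 176 reads, was at -0.68 ± 0.30 (adjusted p = 0.067) at D6 with every D6 library below D0, and Cenpf, a kinetochore and nuclear matrix protein, at 0.21 ± 0.25 (adjusted p = 0.539). The unadjusted interval of Cenpe ran from -1.29 to -0.08, and with library totals its D6 value was -0.44 (adjusted p = 0.254).

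Among genes with at least 70% of reads at a mapping quality of 10, Cenpa stood out for the transcripts that its reads matched. Of 882 Cenpa reads with a mapping quality of at least 10, 45.7% were on transcripts annotated as targets of nonsense-mediated decay or with a retained intron. In the other 5 genes with at least 5% of all reads on such transcripts and at least 70% of reads at that score, the share was 0.0952 to 9.52%. Incenp, with 44.3% of all its reads on retained-intron transcripts, and Smc4, with 43.7% on decay targets, failed the 70% limit. On all reads Cenpa had 46% on decay targets. By library the Cenpa share was 36.7, 38.7 and 37.9% in D0, 60.7, 57.1 and 50% in D2, 61.8, 47.2 and 47.9% in D4 and 63, 41.9 and 24.1% in D6. All D2 and D4 libraries lay above all D0 libraries, which is the smallest p that 3 against 3 allows (0.1, two-sided exact permutation test, adjusted p = 0.6 over 18 comparisons), and D6 spread to both sides. The main such transcript, ENSMUST00000133316.7, took 30.2 to 33.6% of all Cenpa reads at D0. Its reads had a median aligned length of 986 nt, beside 880 nt for the coding transcript ENSMUST00000144742.5. The median aligned length of all Cenpa reads was 880.5 to 908 nt at D0, 957 to 968 at D2, 948 to 981 at D4 and 892.5 to 962 at D6. The part of read length in the share was not tested.

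In the chromosome structure group 3 of 5 fell at D6, and each call depended on single libraries. Top2a, the topoisomerase that untangles sister chromatids, was at 319.9, 365 and 288 in the D0 libraries, 368, 413 and 478 in D2, 273, 314 and 339 in D4 and 230.1, 298 and 184 in D6 CPM. D2 lay above D0 in all libraries without passing the test (0.39 ± 0.15 (adjusted p = 0.0923)), which it passed with library totals, at 0.57 (adjusted p = 0.00492). The D6 fall (-0.45 ± 0.15 (adjusted p = 0.0136)) was not kept without D0 replicate 2 or D6 replicate 3 (log2 fold change -0.37 and -0.31, adjusted p = 0.0679 and 0.125), or with library totals (log2 fold change -0.21, adjusted p = 0.247). Without D6 replicate 2 it was -0.69 (adjusted p = 0.000744). Smc4, a condensin subunit, was at 130.3, 107 and 119.7 in the D0 libraries, 102, 177 and 138 in D2, 110.2, 115 and 104 in D4 and 85.4, 94.4 and 62.3 in D6 CPM. It fell at D6 (-0.55 ± 0.21 (adjusted p = 0.0297)), but not without D0 replicates 1 or 3 or D6 replicate 3 (log2 fold change -0.53 to -0.41, adjusted p = 0.0625 to 0.158), or with library totals, without the read minimum, with a replicate block or with the transcript of most reads alone (log2 fold change -0.55 to -0.30, adjusted p = 0.051 to 0.242). Ncapd2, also of condensin, was at 128, 124 and 111 in the D0 libraries, 78.4, 153 and 143 in D2, 85.7, 56.3 and 118 in D4 and 52, 88.1 and 78.5 in D6 CPM. Its D6 libraries lay below D0 (-0.69 ± 0.23 (adjusted p = 0.0125)), a call not kept without D6 replicate 1 (log2 fold change -0.52, adjusted p = 0.0721), or with library totals (log2 fold change -0.46, adjusted p = 0.112). Thinned it was -0.15 (adjusted p = 0.811). Smc2, their partner, had a D6 value of -0.33 ± 0.25 (adjusted p = 0.321). No Smc2 or Smc4 read reached a mapping quality of 10.

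Mki67, whose protein coats mitotic chromosomes and is widely used to mark dividing cells, was not called lower than D0 at any day. It was at 99.5, 111 and 63 in the D0 libraries, 133, 209 and 127 in D2, 69.4, 127 and 123 in D4 and 77.9, 109 and 89.3 in D6 CPM. D2 lay above D0 (log2 fold change 0.84 ± 0.24 (SE), adjusted p = 0.0106), and D6 overlapped D0 (0.08 ± 0.23 (adjusted p = 0.827), interval -0.38 to 0.53). The D2 call was not kept without D0 replicate 3 or D2 replicate 2 (log2 fold change 0.62 and 0.60, adjusted p = 0.103 and 0.226), or with mapping quality of at least 10 (log2 fold change 0.77, adjusted p = 0.0675).

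The spindle group of 10 motors and microtubule binders had 4 lower and none higher at D6. Kif11, the motor that drives spindle poles apart, was at 71.1, 113 and 92.4 in the D0 libraries, 39.2, 84.3 and 42.5 in D2, 65.3, 65.6 and 74.2 in D4 and 59.4, 58.7 and 29.8 in D6 CPM and 1.92-fold lower at D6 (log2 fold change -0.94 ± 0.26 (SE), adjusted p = 0.00255), without overlap with D0. Kif20a, a cytokinesis motor, was at 147, 146 and 139 in the D0 libraries, 133, 169 and 191 in D2, 102, 103 and 111 in D4 and 115, 65 and 78.5 in D6 CPM and also lower at D6 without overlap (-0.83 ± 0.20 (adjusted p = 0.00051)). No Kif11 read and 15.7% of Kif20a reads reached a mapping quality of 10. Kif20a lost its call with mapping quality of at least 10 or with the transcript of most reads alone (log2 fold change -0.47 and -0.40, adjusted p = 0.593 and 0.262). Kif11 lost its call with the transcript of most reads alone or with thinning (log2 fold change -0.80 and -0.63, adjusted p = 0.0528 and 0.26). Kif22, a motor on chromosome arms, was at 75.8, 113 and 52.5 in the D0 libraries, 54.9, 92.3 and 58.4 in D2, 53, 86.7 and 78.8 in D4 and 37.1, 35.7 and 62.3 in D6 CPM. A D6 library lay above the lowest D0 library, and the call (-0.82 ± 0.28 (adjusted p = 0.0158)) was not kept without D0 replicate 2 or D6 replicate 2 (log2 fold change -0.53 and -0.66, adjusted p = 0.177 and 0.113), or with library totals (log2 fold change -0.59, adjusted p = 0.0915). Hmmr, a spindle pole protein, was at 94.8, 51.9 and 84 in the D0 libraries, 102, 76.3 and 63.7 in D2, 24.5, 32.8 and 67.2 in D4 and 33.4, 56.6 and 32.5 in D6 CPM. It was lower at D4 (-0.81 ± 0.29 (adjusted p = 0.0321)) and D6 (-0.79 ± 0.29 (adjusted p = 0.0239)), with overlap at both days. Its D6 call was lost without D0 replicates 1 or 3 or D6 replicates 1 or 3 (log2 fold change -0.69 to -0.65, adjusted p = 0.0753 to 0.111), or with library totals (log2 fold change -0.55, adjusted p = 0.145). Its D4 call was lost without D0 replicates 1 or 3 or D4 replicates 1 or 2 (log2 fold change -0.69 to -0.61, adjusted p = 0.12 to 0.217), or with library totals or without the read minimum (log2 fold change -0.68 and -0.81, adjusted p = 0.0934 and 0.056). Without D4 replicate 3 the D4 value was -1.23 (adjusted p = 0.0128), and thinned the D6 value was -1.24 (adjusted p = 0.0621).

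Prc1 and Nusap1, which bundle and stabilize spindle microtubules, rose at D4. Prc1 was at 42.7, 40.8 and 37.8 in the D0 libraries, 47, 60.2 and 101 in D2, 53, 68 and 76.5 in D4 and 55.7, 62.9 and 51.4 in D6 CPM, and its 9 later libraries all lay above D0. The D4 difference passed (0.73 ± 0.26 (adjusted p = 0.0305)) and those at D2 and D6 did not (0.77 ± 0.30 (adjusted p = 0.0912) and 0.50 ± 0.27 (adjusted p = 0.137)). With library totals they did, at 0.96 (adjusted p = 0.0275) and 0.74 (adjusted p = 0.023). Nusap1 was at 90.1, 68.5 and 124 in the D0 libraries, 109.8, 124 and 159 in D2, 122, 129 and 144 in D4 and 85.4, 83.9 and 40.6 in D6 CPM and passed at D4 (0.55 ± 0.21 (adjusted p = 0.0428)), with 1 D4 library inside the D0 range. Neither D4 call was kept without D0 replicate 2 or D4 replicates 2 or 3, which gave adjusted p = 0.0722, 0.0692 and 0.123 for Prc1 and 0.325, 0.066 and 0.125 for Nusap1, nor that of Prc1 without D0 replicate 3 (0.0766) or of Nusap1 without D0 replicate 1 (0.0626). The Nusap1 fold change was 0.31 without D0 replicate 2 and the others stayed between 0.51 and 0.73. Prc1 also lost its D4 call by limma with a trend, with mapping quality of at least 10, without the read minimum or with a replicate block (log2 fold change 0.69 to 0.95, adjusted p = 0.0539 to 0.11). Nusap1 also lost its D4 call by limma with a trend, without the read minimum or with a replicate block (log2 fold change 0.52 to 0.55, adjusted p = 0.0679 to 0.17). The D4 values were larger for Prc1 with the transcript of most reads, at 1.45 (adjusted p = 0.0315), and for Nusap1 with mapping quality of at least 10, at 1.01 (adjusted p = 0.00524). The rest of the group was not called at any day. At D6 Tpx2, the activator of Aurora A, was at -0.39 ± 0.18 (adjusted p = 0.0791), Kif2c, a microtubule depolymerase, at -0.31 ± 0.25 (adjusted p = 0.335), Kif23, a cytokinesis motor, at -0.21 ± 0.31 (adjusted p = 0.633), and its partner Racgap1 at 0.15 ± 0.17 (adjusted p = 0.533). With library totals Tpx2 was at -0.15 (adjusted p = 0.528) and Racgap1 at 0.38 (adjusted p = 0.0623).

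The 18 genes without a call at D6 had log2 fold changes from -0.68 to 0.50 and adjusted p from 0.0634 to 0.935. In 1 of the 18 the 95% interval reached a halving. Under scaling by library totals alone, 3 of them (Bub3, Ttk and Kif23) changed sign, all with values near 0, and Prc1 was called higher. Over the 5 comparisons 30 of the 42 genes were called at least once and 12 never.

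Between successive days more genes were called at the last step. From D2 to D4, 1 gene fell and 0 rose, beside 1.02% and 2.01% of all genes, with a median log2 fold change of -0.23 beside 0.04. That gene was Birc5 (-0.56 ± 0.16 (adjusted p = 0.0277)), not called without D2 replicates 2 or 3 or D4 replicates 1 or 3 (log2 fold change -0.56 to -0.44, adjusted p = 0.0726 to 0.285), or by limma with a trend (log2 fold change -0.52, adjusted p = 0.0584). Thinned it was -0.30 (adjusted p = 0.552). At an unadjusted p under 0.05, 11 genes were lower and 1 higher, and limma with an intensity trend called 0 in either direction. From D4 to D6, 11 genes fell and 0 rose, beside 3.92% and 4.44% of all genes, with a median of -0.44 beside 0.03. At an unadjusted p under 0.05, 20 were lower and 0 higher, and limma with a trend called 8 lower and 0 higher. The unadjusted counts of both steps were not made over all genes and are descriptions only. With library totals the medians of both steps were close, at -0.29 from D2 to D4 and -0.33 from D4 to D6, and the D2 libraries were the shallowest.

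The 11 genes included the lowest values of this step in Ccnb2 (-1.10 ± 0.20 (adjusted p = 6.11e-05)), Cdca8 (-1.05 ± 0.20 (adjusted p = 0.000166)) and Nusap1 (-0.99 ± 0.24 (adjusted p = 0.00315)). Pttg1 (-0.79 ± 0.16 (adjusted p = 0.000591)), Cks1b (-0.73 ± 0.17 (adjusted p = 0.00187)), Aurkb (-0.67 ± 0.22 (adjusted p = 0.038)) and Cdk1 (-0.65 ± 0.17 (adjusted p = 0.00589)) followed, and then Birc5 (-0.60 ± 0.16 (adjusted p = 0.0107)), Ube2c (-0.56 ± 0.13 (adjusted p = 0.00296)), Cks2 (-0.55 ± 0.16 (adjusted p = 0.0183)) and Ccna2 (-0.50 ± 0.16 (adjusted p = 0.0343)). Of these, 8 were also lower at D6 than at D0, and Ccna2, Ube2c and Nusap1 were not. Cks2 was not called without D4 replicate 2 (log2 fold change -0.55, adjusted p = 0.0605), or with library totals, by limma with a trend or with mapping quality of at least 10 (log2 fold change -0.57 to -0.44, adjusted p = 0.0561 to 0.0684). Nusap1 was not called without D6 replicate 3 (log2 fold change -0.70, adjusted p = 0.0733). Ccna2 was not called without D4 replicate 2 or D6 replicates 2 or 3 (log2 fold change -0.55 to -0.52, adjusted p = 0.0602 to 0.0712), or with library totals, by limma with a trend, with mapping quality of at least 10 or without the read minimum (log2 fold change -0.50 to -0.39, adjusted p = 0.0616 to 0.0919). Aurkb was not called without D4 replicates 1 or 2 or D6 replicates 2 or 3 (log2 fold change -0.70 to -0.56, adjusted p = 0.0542 to 0.187), or with library totals, by limma with a trend, with mapping quality of at least 10 or without the read minimum (log2 fold change -1.12 to -0.56, adjusted p = 0.0613 to 0.139). Pttg1 was not called with mapping quality of at least 10 (log2 fold change -0.38, adjusted p = 0.518). The same setting ended the calls of Cdk1 and Birc5, whose values were -0.53 (adjusted p = 0.0617) and -0.54 (adjusted p = 0.0565). Thinning to the smallest library ended 8 of the 11 calls, and took Ccnb2 to -1.81 (adjusted p = 0.000277).

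A wider list of 136 other genes of the same machinery was read beside the 42. Of 133 tested, 25 fell at D6 (18.8%) and 7 rose (5.26%), against the 18.2% and 19.4% of all genes. At D4, 9 fell (6.77%) and 7 rose (5.26%), both below the 12.7% and 12.6% of all genes. At D2, 1 fell (0.752%) and 9 rose (6.77%), beside 6.32% and 4.48%. From D2 to D4, 1 fell and 1 rose (0.752% each, beside 1.02% and 2.01%). From D4 to D6, 6 fell (4.51%, beside 3.92%) and 1 rose (0.752%, beside 4.44%). By function at D6, 8 of 34 kinetochore genes fell and 1 rose, 4 of 17 cohesin and condensin genes fell and none rose, and 7 of 38 centrosome, spindle and cytokinesis genes fell and 1 rose. Of 28 kinases, phosphatases and transcription factors of G2/M, 4 fell and 2 rose. The 16 genes of the APC/C and its inhibitors had 2 lower and 3 higher, with a median of 0.24.

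The lowest calls among these genes were Oip5, which helps load centromeric histone, at 35.5, 44.5 and 33.6 CPM at D0 and 7.42, 10.5 and 13.5 at D6 (log2 fold change -1.71 ± 0.44, adjusted p = 0.00142), then Cdca5 (sororin) at 116, 92.6 and 86.1 and 33.4, 29.4 and 29.8 (-1.62 ± 0.28, adjusted p = 3.79e-06). The cytokinesis motor Kif20b came next at 37.9, 44.5 and 39.9 and 7.42, 18.9 and 13.5 (-1.49 ± 0.40, adjusted p = 0.00228). In all 3 genes the D6 libraries lay below every D0 library.

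The highest calls were Lin52, a subunit of the DREAM complex, at 26.1, 7.41 and 8.40 CPM at D0 and 22.3, 25.2 and 40.6 at D6 (1.28 ± 0.45, adjusted p = 0.0186), Haus7 of the augmin complex at 14.2, 27.8 and 37.8 and 96.5, 41.9 and 56.8 (1.15 ± 0.32, adjusted p = 0.00283), and the APC/C subunit Cdc26 at 56.9, 61.1 and 54.6 and 137, 124 and 106 (1.06 ± 0.23, adjusted p = 0.000132). Lin52 overlapped between D0 and D6 and rests on 70 reads. Mybl2, a transcription factor that acts on G2/M promoters, fell from 56.9, 44.5 and 42 CPM to 18.6, 29.4 and 21.7 (-0.93 ± 0.32, adjusted p = 0.0178). Foxm1 overlapped between 80.6, 44.5 and 69.3 CPM at D0 and 44.5, 54.5 and 67.7 at D6 (-0.13 ± 0.25, adjusted p = 0.719). Of the other transcription factors in the list, E2f4 was called lower at D6 and E2f5 higher at D4.

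Stmn1, a microtubule destabilizer of dividing cells and of young neurons, dipped at D2. It was at 1344, 1582 and 1438 in the D0 libraries, 604, 546 and 425 in D2, 1363, 1224 and 1245 in D4 and 1763, 1539 and 1462 in D6 CPM. The D2 libraries lay far below all others (-1.50 ± 0.12, adjusted p = 3.18e-15), and D6 overlapped D0 (0.11 ± 0.09, adjusted p = 0.371).

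Few differences in poly(A) tail passed the test. Tails were compared as the median per gene and library for the 40 genes with at least 5 reads in every library (Ttk and Cenpe had fewer). At D6 1 of the 40 was called shorter and 0 longer (limma weighted by reads, adjusted over 3243 genes), beside 1.91% shorter and 1.39% longer among all genes tested, and 7 of the 40 had an unadjusted p under 0.05. Their median change was 0.68 nt beside 3.44 nt for all genes, with a median SE of 9.57 nt for a single gene. At D2 and at D4 0 of the 40 were called, beside 0% and 0.74% of all genes in either direction, with 6 and 3 at an unadjusted p under 0.05. From D4 to D6 0 were called beside 0.0925%, with 5 at an unadjusted p under 0.05. The unadjusted counts of tails were not made over all genes and are descriptions only.

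Pooled over all reads of these genes, the median tail (mean ± SD of 3 libraries) was 111 ± 2.93 nt for D0, 109 ± 2.96 for D2, 108 ± 1.19 for D4 and 111 ± 2.89 for D6. Other genes stood at 103 ± 2.68, 97.2 ± 1.05, 96.6 ± 1.53 and 101.6 ± 1.03 nt. The pooled median of the 42 genes was thus the longer one at each day. Pooling weights genes by their reads. As the median over gene medians, 40 of the genes stood at 111.4, 108.3, 109.8 and 113.2 nt in order of days. The 3203 other genes tested stood at 106, 102.3, 104.7 and 109.6 nt. By this measure the libraries of both sets overlapped at D0 and at D6. Tails of 30 to 90 nt made up 33.5, 34.9, 34.9 and 33.5% of the reads of these genes in order of days and 38.3, 41.9, 42.1 and 39.2% of those of other genes. Tails under 30 nt made up 3.57, 3.76, 3.91 and 4.37% and 2.27, 2.86, 3.41 and 3.28%. In every library the genes had a smaller share of 30 to 90 nt tails than the rest.

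**Figure D4:**
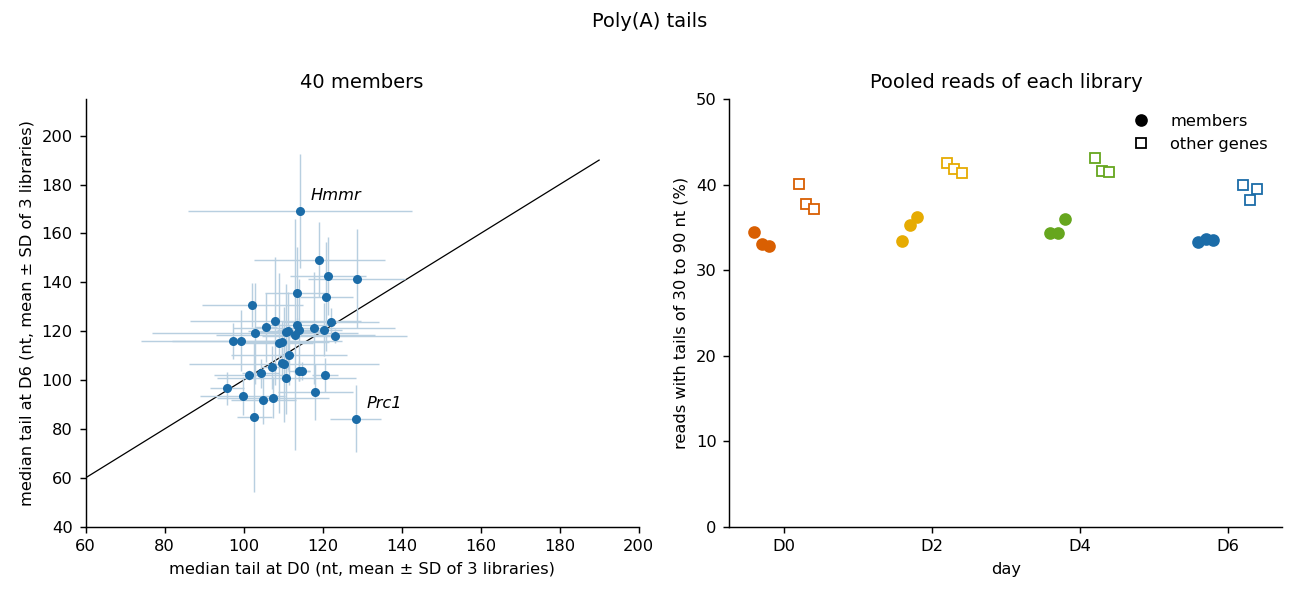
Left, median tail at D6 against D0 for 40 of the genes (nt, mean ± SD of 3 libraries, line of equality). Right, percentage of reads with tails of 30 to 90 nt in every library for the 42 genes (filled points) and for other genes (open squares). Hmmr and Prc1 lie farthest from the line, and the genes lie below other genes in every library, at a mean of 33.5% beside 38.3% at D0 and 33.5% beside 39.2% at D6.

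The gene called shorter was Prc1, the microtubule bundler whose level had risen at D4. Its median tail was 123, 136 and 127 in the D0 libraries, 97.8, 143 and 88.4 in D2, 111, 114 and 107 in D4 and 99.1, 81.2 and 72.4 in D6 nt. The D6 libraries lay below every D0 library (-46.1 ± 12.3 nt, adjusted p = 0.0447), but a library held as few as 6 Prc1 reads. Without any single library of D0, of D4, D2 replicate 1, D6 replicate 2 or D6 replicate 3 the call was not kept, with adjusted p from 0.0528 to 0.188 and changes from -48.8 to -41.7 nt. Hmmr moved most in the other direction, with 147, 97.6 and 98.2 in the D0 libraries, 103, 118 and 117 in D2, 82.3, 84.2 and 75.7 in D4 and 167, 147 and 194 in D6 nt. Its D6 libraries lay above all others, by under 1 nt over D0 replicate 1, and the change was 46.4 ± 14.7 nt (adjusted p = 0.0918). Leaving out each library of D0 or D6 in turn gave 35.9 to 66 nt. The change passed without D0 replicate 1 alone (64.6 nt, adjusted p = 0.0163), and the adjusted p was 0.0983 to 0.266 without any other library.

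Across the 40 genes the change in tail and the change in level at D6 had a Pearson r of -0.08 and a Spearman rho of 0.07, and the D0 tail and the change in level 0.17 and 0.05. These are descriptions across genes that share the same 6 libraries, not a test. Cks2 had median tails of 125, 120.2 and 116 nt at D0 and 122, 109 and 131 nt at D6 (-1.05 ± 6.66 nt, adjusted p = 0.97) while its level fell 2.05-fold.

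Several library measures moved with the days alongside these results. The share of mitochondrial reads among messenger RNA reads went from 3.86 to 4.51% at D0 to 8.28 to 10.5% at D6, and these reads were not counted in the levels. Neuron markers rose as the genes fell, as given above. The median aligned length of a read went from 842 to 924 nt at D0 to 965 to 989 at D6 for these genes, and from 648 to 728 to 745 to 827 for other genes. The part of any of these measures in the lower levels of the 23 genes was not tested.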

How the data were processed

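Native RNA of P19 cells at D0, D2, D4 and D6 was sequenced on nanopores, with 3 replicates a day multiplexed by barcode. Base calling by the authors used Guppy. Their alignment to mm10 transcripts of GENCODE vM17 used minimap2 2.20, their tail lengths came from Nanopolish and their barcodes from Deeplexicon. The deposited per-read table has 1 line per read with its transcript, its tail length in nucleotides (a value of no fixed normalization) and the aligner's mapping quality, a score. Barcode confidence, a fraction that the authors gave for each read, was not used beyond their assignment. A second deposited table with the authors' own log2 fold changes and p-values from DESeq2 was not used. Of 6306434 lines, 289329 had no assigned library and 4673531 were of passing tail quality in a library.

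Reads of class mRNA and passing tail quality were tallied per gene, without mitochondrial and pseudogene reads. Genes with at least 30 reads over the 12 libraries were tested with limma-voom (limma 3.58.1, R 4.3.3; a pseudocount of 0.5 reads) after TMM scaling (30% of ratios and 5% of levels trimmed), in a single fit over all libraries without a block, with Benjamini-Hochberg adjustment over 9309 genes. Fold changes are on that log scale and understate changes of genes with few reads. A count model was not used because the tallies were made here. Median tails were fitted with limma, weighted by reads up to a cap of 100, for genes with at least 5 reads in every library. Scripts were tested on simulated data. With 120326 reads in the smallest library, 1 read is several CPM, and precision is lowest at D2. Gene names were those of the table, and tables of python 3.11.15 with pandas 2.3.3 gave levels and counts. CPM are reads scaled to a fixed library total. Promoter windows were RefSeq sequences on GRCm38.p6.

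Libraries were grouped by the sample labels. Some run names in the table carry another day or none and were not used. Levels in every library are given for members called in any comparison or among the 12 with most reads, and other members by their D6 value. Of the wider pathway list, the 3 highest and 3 lowest calls at D6 averaging 5 or more reads in a library were named, with Foxm1, Mybl2 and Stmn1. The members, the gene lists and the tests were chosen with earlier results of these data known. Other scalings, read filters, fits, tail summaries and each library left out in turn were tried as alternatives.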

Additional observations from a re-analysis of the deposited data

How the results depend on the processing

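Of the 23 genes that fell at D6, 14 kept the call whichever library was left out and 10 (Aurka, Birc5, Ccnb2, Cdca3, Cdca8, Cdk1, Cks1b, Cks2, Plk1 and Pttg1) under every alternative run. With scaling by library totals alone, 14 genes were lower and 2 higher at D6, 4 and 5 at D4 and 11 higher at D2, and 3 fell from D2 to D4. The counts over all genes at D2, D4 and D6 are given above, and 138 of all 9309 genes fell from D2 to D4. With median-of-ratios size factors 4 fell from D2 to D4. With libraries thinned to the smallest, 14 were lower and 0 higher at D6, 0 and 0 at D4, 0 fell from D2 to D4 and 3 from D4 to D6, with fewer reads by construction. With mapping quality of at least 10, 37 genes were left to test. Cdc25b, the gene called higher at D6, had too few such reads and was not among them. Of the 37, 1 was lower and 1 higher at D2, 0 were higher at D6 and 6 fell from D4 to D6, and Ccnb1 at D6 came to 0.0233 (adjusted p = 0.95). The cause was not tested. With the transcript of most reads for each gene, 1 was lower at D2 and 2 higher at D6. Limma with a trend gave 3 lower and 1 higher at D4 and 0 from D2 to D4, and no filter on reads gave 1 higher at D4.

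Leaving out each library in turn gave 0 to 1 lower and 2 to 4 higher at D2, 5 to 7 and 1 to 4 at D4, 19 to 26 and 0 to 1 at D6, 0 to 2 lower from D2 to D4 and 9 to 13 from D4 to D6. For tails it gave 0 to 1 longer and 0 to 1 shorter at D6. Tails at D6 were longer in 1 gene with a minimum of 3 reads and in 2 by the mean tail. The shorter call of Prc1 (-46.1 nt) did not pass (0 genes) with a minimum of 3 reads (-46.1 nt, adjusted p = 0.0626), without weights (-44.2 nt, 0.183), with the replicate block (-46.8 nt, 0.0782), by the mean tail (-29.7 nt, 0.0953) or by the percentage of 30 to 90 nt tails (19.6 points higher, 0.29). With a minimum of 10 reads or mapping quality of at least 10 Prc1 had too few reads to be tested (0 genes called).

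Samples of the same replicate number correlated at -0.16 to 0.50 over 18 pairs and those of different numbers at -0.54 to 0.32 over 36, and for D0 against each later day at least 1 of the 3 same-numbered pairs was under 0.1, so there the numbers are taken as names only. Between D2 and D4 (0.13 to 0.35) and between D4 and D6 (0.10 to 0.39) all 3 pairs were over 0.1, and the block changed no call of these steps. With the replicate block 21 genes were lower and 1 higher at D6 and 6 and 1 at D4, without Bub1b and Smc4 at D6 and Bub1, Nusap1 and Prc1 at D4 (adjusted p = 0.052 to 0.088). Adding mitochondrial and pseudogene reads, an alternative chosen after seeing the data, gave the same counts of calls. A planned tally of all named reads outside repeats and spike-ins held the same reads as the one used and was not run separately. Depth limits the genes with fewest reads: the 5 genes with under 200 reads (Cdc25b, Cdc25c, Ttk, Cenpe and Kif23) had SEs of 0.30 to 0.34 in log2 at D6 against D0.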
